A study of Mus musculus with 40 samples.

Results

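Muscle ankyrin repeat proteins, Xin repeat proteins, LIM proteins and muscle ubiquitin ligases were followed in mouse hearts that overexpressed the microRNA miR-378a, with and without pressure overload. The set has 10 members of the 23420 gene symbols that were counted, chosen by name: Ankrd1, Ankrd2, Ankrd23, Xirp1, Xirp2, Csrp3, Fhl1, Nrap, Trim63 and Fbxo32. They were chosen with earlier results of these data known, so the share of members called below is a description and not an independent test. RNA came from 20 hearts of FVB/N mice, labelled male and 12 weeks old, either without the transgene (non-transgenic, ntg) or with a miR-378a transgene (TG). The 4 groups were 3 ntg hearts and 3 TG hearts with a sham operation, and 7 ntg hearts and 7 TG hearts after 2 weeks of transverse aortic constriction (TAC), a band around the aorta that loads the left ventricle with pressure. The tissue was the heart in coronal section with the right ventricle taken off. From each heart the polyadenylated RNA was sequenced (mRNA library), and so was the RNA that came down with immunoprecipitated Ago2, the protein of the RNA-induced silencing complex that carries microRNAs (RISC library). The promoter of the transgene and the number of transgenic lines are not given in the sources used here, and the microRNA gene Mir378 held 0 counts in all 40 libraries, where up to 3 counts a library could go unseen, so the overexpression itself was not checked by these counts.

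The members sit where heart muscle cells sense stretch. Ankrd1 (cardiac ankyrin repeat protein), Ankrd2 and Ankrd23 bind the spring region of titin in the sarcomere and can also enter the nucleus. Xirp1 and Xirp2 carry Xin repeats, bind actin and lie at the intercalated disc that joins neighbouring muscle cells. Csrp3 (muscle LIM protein) is a Z-disc protein, Fhl1 is a LIM-only protein that binds titin, and Nrap links the ends of thin filaments to the membrane and takes part in the assembly of myofibrils. Trim63 (MuRF1) and Fbxo32 (atrogin-1) are ubiquitin ligases of striated muscle: Trim63 binds titin and marks thick filament proteins, and Fbxo32 is the substrate-binding part of a cullin ligase complex. Both ligases are widely used as markers of muscle atrophy, and Ankrd1 is a widely used marker of cardiac stress.

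The mRNA of Ankrd1, Ankrd23, Xirp2 and Nrap was called higher after TAC in both genotypes, so the 200 bases before the start of these genes are shown, with those of Trim63, which was called in no comparison, beside them. The sequences are from RefSeq on the build GRCm38.p6, 5′ to 3′ on the strand of the gene. RefSeq windows were at hand for 8 of the 10 members. Where a gene had more than 1 window, the window whose start lay nearest to the deposited gene model was taken, and the printed windows started 0 to 10 bases from it. Capitals mark matches to 5 motifs. The M-CAT motif was searched as the letters CATTCC, and the motif of GATA factors was searched as the letters AGATAA. MEF2 and CArG elements were searched by their usual consensus. These were looked for on both strands, and the TATA box, as the letters TATAA, on the strand of the gene.
Ankrd1: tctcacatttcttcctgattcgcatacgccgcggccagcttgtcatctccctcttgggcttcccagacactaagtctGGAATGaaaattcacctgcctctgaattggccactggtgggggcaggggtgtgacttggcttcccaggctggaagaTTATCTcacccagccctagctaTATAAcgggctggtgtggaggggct
Ankrd23: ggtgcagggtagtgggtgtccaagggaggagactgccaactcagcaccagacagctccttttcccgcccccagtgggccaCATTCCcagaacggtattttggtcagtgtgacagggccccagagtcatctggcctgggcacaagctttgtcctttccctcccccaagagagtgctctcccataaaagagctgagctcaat
Xirp2: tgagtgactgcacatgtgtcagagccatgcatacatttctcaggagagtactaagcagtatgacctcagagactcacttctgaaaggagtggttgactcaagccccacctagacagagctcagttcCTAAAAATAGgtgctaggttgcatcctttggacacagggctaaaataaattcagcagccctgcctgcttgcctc
Nrap: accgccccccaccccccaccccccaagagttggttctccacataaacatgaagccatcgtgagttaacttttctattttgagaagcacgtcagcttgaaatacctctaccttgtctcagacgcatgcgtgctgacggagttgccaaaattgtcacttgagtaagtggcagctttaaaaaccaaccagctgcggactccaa
Trim63: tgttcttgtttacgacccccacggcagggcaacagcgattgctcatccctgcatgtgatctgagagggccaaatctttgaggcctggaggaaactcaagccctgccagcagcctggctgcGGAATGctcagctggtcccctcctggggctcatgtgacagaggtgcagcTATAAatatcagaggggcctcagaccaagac
The Ankrd1 window (chr19:36119845-36120044, minus strand) held an M-CAT match on the other strand from -123 to -118, a GATA match, also on the other strand, from -47 to -42 and a TATA match from -25 to -21, counted from the start site. The Ankrd23 window (chr1:36535740-36535939, minus strand) held an M-CAT match from -120 to -115, and the Xirp2 window (chr2:67445802-67446001, plus strand) held a MEF2 match from -74 to -65. The Nrap window (chr19:56390039-56390238, minus strand) held none of the 5 motifs. The Trim63 window (chr4:134314920-134315119, plus strand) held an M-CAT match on the other strand from -80 to -75 and a TATA match from -31 to -27. No match overlapped another. Of 32841 windows of this length in the table, 10.1% held M-CAT, 7.80% GATA, 2.28% MEF2, 1.18% CArG and 13.0% TATA. The genes that rose shared no motif that Trim63 lacked, and the matches describe letters in these windows and not sites in use.

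Gene counts came to 9.98 to 25.5 M in the mRNA libraries and 7.55 to 25.4 M in the RISC libraries, where 48.5 to 62.3% of counts fell on Rn45s, the precursor of ribosomal RNA. Levels are in CPM, a gene's counts per mega (M) counts of its library after TMM scaling. The labels give every mouse as male, but the 6 sham hearts and the 14 TAC hearts differed in sex-linked RNA. In the mRNA libraries Xist, which is made from an inactive X chromosome, was at 117 to 142 CPM in sham hearts and 1.03 to 3.48 CPM in TAC hearts. The summed level of 4 Y-linked genes was 0.216 to 4.88 CPM in sham hearts and 79.9 to 122 CPM in TAC hearts. Every comparison of TAC with sham below is therefore also a comparison of Xist-rich hearts with Y-positive hearts, and the operation and this difference cannot be told apart; comparisons of TG with ntg are free of it. These are bulk samples, so fewer cells of a type and less RNA per cell cannot be told apart either. In the mRNA libraries, the summed level of 8 cardiomyocyte markers was 99190 to 106800 CPM in ntg sham hearts, 76140 to 91770 in TG sham, 74240 to 82760 in ntg TAC hearts and 72900 to 80880 in TG hearts after TAC, so it was lower after TAC in ntg hearts without overlap. The summed level of 8 fibroblast markers was 1243 to 1481 CPM in ntg sham hearts, 1151 to 1215 in TG sham, 2077 to 3040 in ntg TAC hearts and 1464 to 3263 in TG hearts after TAC, so it was higher after TAC in both genotypes without overlap. In ntg hearts 3 other lists also moved after TAC without overlap: 10 adipocyte markers were at 920.8 to 1118 CPM in sham and 532.8 to 893.9 CPM in TAC hearts, 6 macrophage markers at 192.2 to 199.2 and 229 to 265.6 CPM, and 6 endothelial markers at 1001 to 1061 and 1120 to 1197 CPM. In TG hearts 5 atrial markers were at 524 to 2201 CPM in sham and 3491 to 8019 CPM in TAC hearts, also without overlap. This sum includes Nppa, which is also among the overload markers below. The other 4 (Sln, Myl4, Myl7 and Bmp10) overlapped, with a mean log2 level of 3.92 ± 3.20 in TG sham (SD, n = 3) and 6.39 ± 1.89 in TG TAC hearts (SD, n = 7). These 4 made up the atrial covariate. In RISC libraries of ntg hearts, cardiomyocyte markers were at 22770 to 23690 CPM in sham and 15980 to 20470 CPM in TAC hearts. Fibroblast and macrophage markers in RISC were higher after TAC in both genotypes without overlap. Apart from fits with the adipocyte or atrial level as a covariate, the part of these differences in the members' changes was not tested. The adipocyte level in ntg sham hearts was apart from the other groups, so fits with it cannot tell it from genotype or operation there.

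The members differed in level by several orders of magnitude. Per kilobase of exon, Ankrd1 and Csrp3 led in ntg sham mRNA with 1316 ± 150 and 1137 ± 88.7 CPM per kilobase (SD, n = 3), and their spreads overlapped. Ankrd23 followed with 278 ± 29.0 CPM per kilobase, then Nrap with 216 ± 8.75 and Trim63 with 144 ± 12.1, each apart from its neighbours by more than the SDs. Fhl1 (79.5 ± 5.08 CPM per kilobase) and Xirp1 (77.3 ± 5.62) could not be ordered within their spread. Xirp2 (57.7 ± 5.48) and Fbxo32 (27.1 ± 4.34) came next, and Ankrd2, best known from skeletal muscle, was last at 0.147 ± 0.0994 CPM per kilobase. In TG TAC hearts Ankrd1 stood alone at the top with 4918 ± 976 CPM per kilobase (SD, n = 7), against 1336 ± 100 for Csrp3. Ankrd23 (362 ± 63.8) and Nrap (332 ± 26.0) then overlapped, as did Fhl1 (182 ± 84.0), Trim63 (141 ± 14.0) and Xirp2 (113 ± 46.3). Xirp1 (67.8 ± 15.1) and Xirp2 could not be ordered within their spread there. All 10 genes passed the filter on low counts in mRNA, and 9 did in RISC, where Ankrd2 had at most 9 counts in a library.

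**Figure D1:**
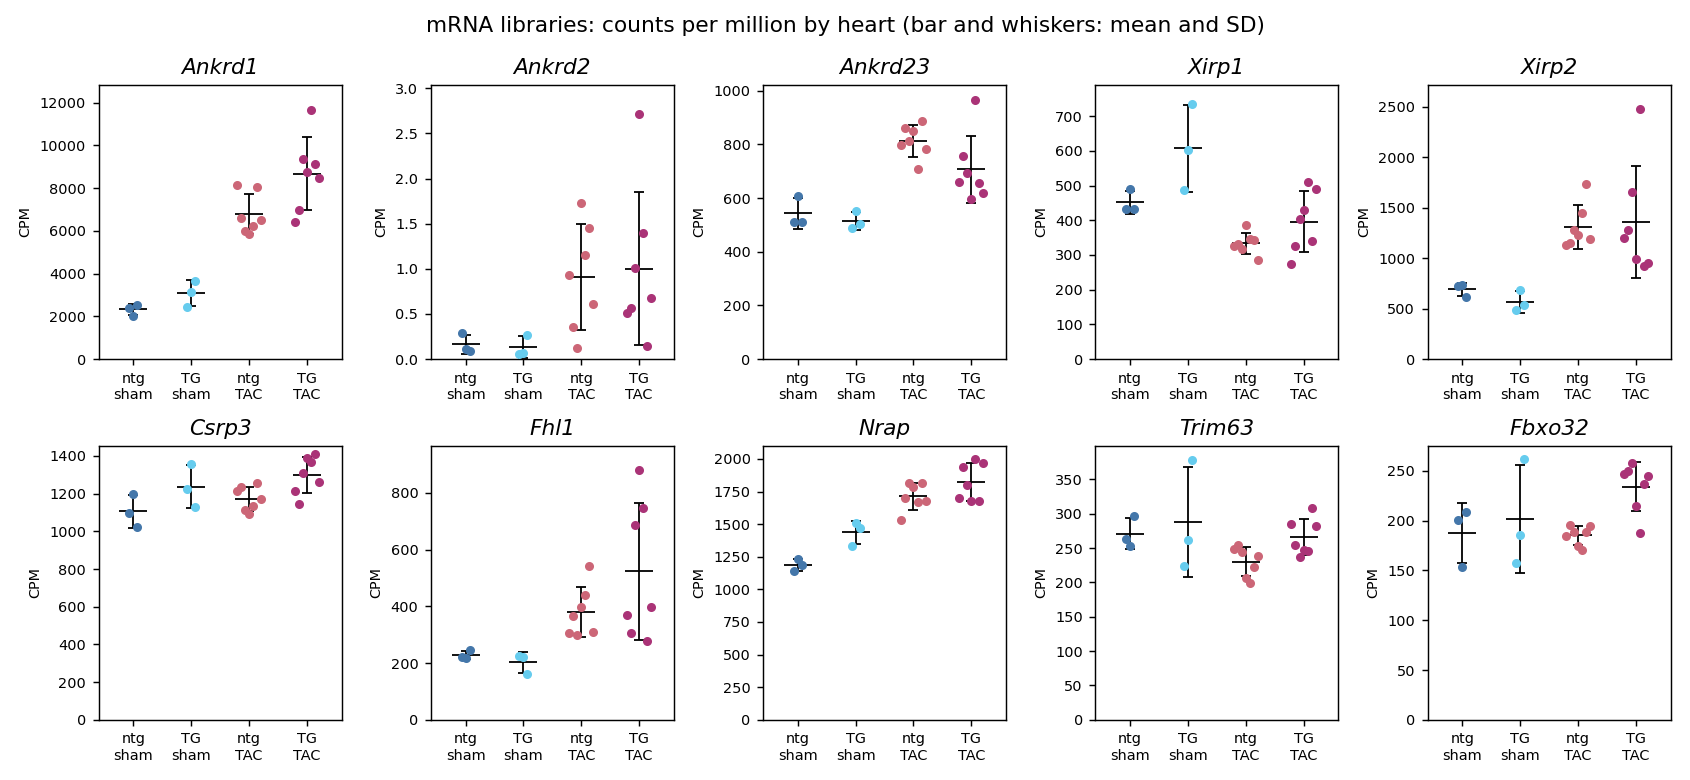
Level of each member in the mRNA libraries in CPM (vertical axes, each starting at 0) for each heart (points) in the 4 groups, with the mean and SD of the group (bar and whiskers; 3 sham and 7 TAC hearts per genotype). Ankrd1 in the 14 TAC hearts lay between 5872 and 11670 CPM, above all 6 sham hearts.

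After TAC the mRNA of several stretch-sensing proteins was called higher, and that of neither ligase was called. In ntg hearts 4 of the 10 members were called higher after TAC and none lower (edgeR's quasi-likelihood test, adjusted p under 0.05), where 17.7% of the 14141 genes tested were called. In TG hearts 6 were called higher and 1 lower, where 13.1% of all genes were called. These backgrounds depended on single sham hearts: 2505 genes called in ntg hearts became 1473 without ntg sham heart 1 and 1484 without heart 2, and 1857 in TG hearts became 1098 without TG sham heart 1 and 1020 without heart 2. The median log2 fold change of the members was 0.55 in ntg and 0.40 in TG hearts, beside -0.02 and 0.00 for all genes tested.

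Ankrd1 had the largest change among the abundant members. Its mRNA was at 2409, 2027 and 2533 CPM in the ntg sham hearts and ranged from 5872 through a median of 6529 to 8160 CPM in the ntg TAC hearts. In TG hearts the sham values were 2451, 3141 and 3646 CPM, and the TAC values ran from 6396 through a median of 8734 to 11670. Every TAC heart lay above every sham heart of its genotype. The log2 fold change was 1.54 (SE 0.17, adjusted p = 1.98e-06) in ntg and 1.50 (SE 0.16, adjusted p = 6.46e-06) in TG hearts, a 2.92-fold and a 2.82-fold difference, and neither call was lost when any library was left out.

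Ankrd23, the diabetes-related ankyrin repeat protein, rose by less. Its levels in ntg hearts were 511, 608 and 509 CPM after the sham operation and 706 to 885 CPM (median 814) after TAC. The TG hearts had 487, 553 and 505 CPM after the sham operation and 598 to 964 CPM (median 660) after TAC. Sham and TAC hearts did not overlap in either genotype. The difference on the log2 scale was 0.58 (SE 0.11, adjusted p = 0.001) in ntg and 0.46 (SE 0.11, adjusted p = 0.0101) in TG hearts, and the TG call was lost without TG sham heart 1 (0.42, adjusted p = 0.058).

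Ankrd2 was near the floor in all hearts. It had 5 counts in the ntg sham libraries together and 94 in the ntg TAC libraries, a ratio per counted read of 5.99 with an exact Poisson interval of 2.48 to 18.9 at 95%. In TG hearts the sums were 5 and 123 counts, a ratio of 8.77 (3.66 to 27.5). These intervals cover counting error only. The sham and TAC hearts overlapped in both genotypes, and the highest level in any heart was 2.71 CPM, in TG TAC heart 4. The change was called in TG hearts (3.01 on the log2 scale, SE 0.97, adjusted p = 0.0452) and not in ntg hearts (2.41, SE 1.02, adjusted p = 0.11). The TG call was lost in 12 of the 20 fits that left out a library, where adjusted p reached 0.172. The summed level of 8 fast skeletal muscle markers was 2.34 to 8.53 CPM over all mRNA libraries.

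The Xin repeat genes moved in opposite directions. Xirp2 was at 721, 735 and 615 CPM in the ntg sham hearts and at 1133 to 1734 CPM (median 1225) after TAC. The TG hearts had 483, 687 and 532 CPM in sham, and 927 to 2474 CPM (median 1200) in TAC. Every TAC heart was above every sham heart of its genotype, and TG TAC heart 5 stood highest. The log2 fold change was 0.92 (SE 0.26, adjusted p = 0.0192) in ntg and 1.26 (SE 0.26, adjusted p = 0.00524) in TG hearts. The ntg call was lost without any of the 3 ntg sham hearts (0.84 to 0.97, adjusted p 0.0584 to 0.083), and with adipocyte marker level as a covariate (0.94, SE 0.35, adjusted p = 0.112). That level differed between ntg sham and ntg TAC hearts, so the fit cannot tell it from the operation.

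Xirp1 was at 433, 490 and 433 CPM in ntg sham hearts and at 287 to 388 CPM (median 330) in ntg TAC hearts, so all 7 lay below the sham hearts. In TG hearts it was at 486, 601 and 735 CPM in sham and 273 to 511 CPM (median 404) in TAC, with TG TAC hearts 5 and 7 (511 and 491 CPM) above TG sham heart 1. The fall was called in TG hearts (-0.62 on the log2 scale, SE 0.15, adjusted p = 0.0102) and missed the threshold by little in ntg hearts (-0.44, SE 0.15, adjusted p = 0.0501). It was called in ntg hearts by DESeq2 (-0.43, adjusted p = 0.0306), and lost in TG hearts without TG sham heart 3 (-0.46, adjusted p = 0.0863).

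Among the LIM proteins, Csrp3 was not called after TAC in either genotype. Its mRNA was at 1097, 1196 and 1024 CPM in ntg sham hearts and 1092 to 1258 CPM in ntg TAC hearts, and the 95% interval of the log2 fold change ran from -0.07 to 0.24. In TG hearts the interval was -0.08 to 0.23.

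Fhl1, which lies on the X chromosome (chrX:56731787-56793346 in the deposited gene models), varied more between TAC hearts than any other abundant member in TG hearts. It was at 221, 219 and 245 CPM in ntg sham hearts, 299 to 541 CPM (median 366) in ntg TAC hearts, and 224, 223 and 160 CPM in TG sham hearts. The 7 TG TAC hearts had 371, 307, 688, 880, 747, 278 and 399 CPM, so hearts 3, 4 and 5 stood well above the other 4, all of them still above the sham hearts. On the log2 scale the difference was 1.37 with the transgene (SE 0.34, adjusted p = 0.0144) and 0.74 in ntg hearts (SE 0.33, adjusted p = 0.136). The TG call was lost without TG sham heart 3 (1.23, adjusted p = 0.0665), and both calls turned when only the groups compared were fitted (TG 1.38, adjusted p = 0.0811; ntg 0.74, adjusted p = 0.0182).

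Nrap changed by little and with little spread. It was at 1140, 1236 and 1187 CPM in ntg sham hearts and at 1532 to 1818 CPM (median 1698) after TAC. With the transgene it was at 1333, 1509 and 1467 CPM in sham and 1678 to 1999 CPM (median 1799) in TAC. No TAC heart reached down to a sham heart of its genotype. On the log2 scale the rise was 0.53 (SE 0.08, adjusted p = 7.14e-05) in ntg and 0.34 (SE 0.08, adjusted p = 0.00568) in TG hearts, and both calls held without any library.

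In mRNA the ubiquitin ligases were not called after TAC. Trim63 was at 264, 253 and 297 CPM in ntg sham hearts and 199 to 254 CPM in ntg TAC hearts, a log2 fold change of -0.24 with a 95% interval of -0.46 to -0.01 and an adjusted p of 0.174. In TG hearts the interval was -0.34 to 0.12. Fbxo32 was at 201, 153 and 209 CPM in ntg sham hearts and 171 to 196 CPM in ntg TAC hearts, with an interval of -0.25 to 0.22. In TG hearts it was at 158, 186 and 262 CPM in sham and 188 to 258 CPM in TAC, with an interval of -0.02 to 0.45, and without TG sham heart 3 that difference was called (0.45, adjusted p = 0.017).

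The transgene changed few members in mRNA. In sham hearts 1 of the 10 members was called, against 18.6% of all genes tested, and in TAC hearts 2 were called, against 25.3%, so the members' share was not above the background in either. In sham hearts the call was Nrap, whose lowest TG heart (1333 CPM) was above the highest ntg heart (1236 CPM) (log2 fold change 0.27, SE 0.09, adjusted p = 0.0367). It was lost without ntg sham heart 1, 2 or 3 or TG sham heart 2 or 3 (0.24 to 0.30, adjusted p up to 0.129), and with the adipocyte markers as a covariate (0.32, adjusted p = 0.139). The summed level of 10 adipocyte markers was 921 to 1118 CPM in ntg sham hearts and 384 to 489 CPM in TG sham hearts. Their mean log2 level, the covariate, was 4.89 ± 0.09 and 1.69 ± 0.64 (SD, n = 3), so the fit cannot tell it from the genotype. In that fit the Nrap difference did not shrink, and its SE rose to 0.13. Other marker lists were also lower in TG than in ntg sham hearts without overlap: the cardiomyocyte and fibroblast lists given above, smooth muscle (591.1 to 747.1 against 830.5 to 1051 CPM), endothelial (951.1 to 973.4 against 1001 to 1061 CPM) and macrophage (144.3 to 176.1 against 192.2 to 199.2 CPM). Their part in the calls was not tested. Ankrd1 (0.41, SE 0.18, adjusted p = 0.119) and Xirp1 (0.43, SE 0.18, adjusted p = 0.108) had larger differences in sham hearts that were not called.

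In TAC hearts Fbxo32 was 1.26-fold higher with the transgene. The 7 ntg TAC hearts had 171 to 196 CPM, with a median of 188, and the TG TAC hearts had 188 to 258 CPM, with a median of 245. TG TAC heart 5, at 188 CPM, was the only TG heart within the ntg range. The log2 fold change was 0.34 (SE 0.09, adjusted p = 0.00911), and the call held without any library. Endothelial markers (961.8 to 1083 in TG against 1120 to 1197 CPM in ntg) and macrophage markers (172.6 to 221.6 against 229 to 265.6 CPM) were lower in these TG hearts without overlap, and their part in the members' differences was not tested. Ankrd1 was 1.28-fold higher (log2 fold change 0.36, SE 0.12, adjusted p = 0.0285), with overlapping groups at 5872 to 8160 CPM and 6396 to 11670 CPM. Its call was lost without ntg TAC heart 3, 4, 5 or 7 or TG TAC heart 3, 5 or 6 (0.27 to 0.35, adjusted p up to 0.0673). Trim63, the other ligase, had a difference of 0.21 (SE 0.09, adjusted p = 0.103) that was not called, and was called when only the TAC groups were fitted (0.21, adjusted p = 0.0401). Fhl1 had a difference of 0.46 (SE 0.24, adjusted p = 0.185).

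**Figure D2:**
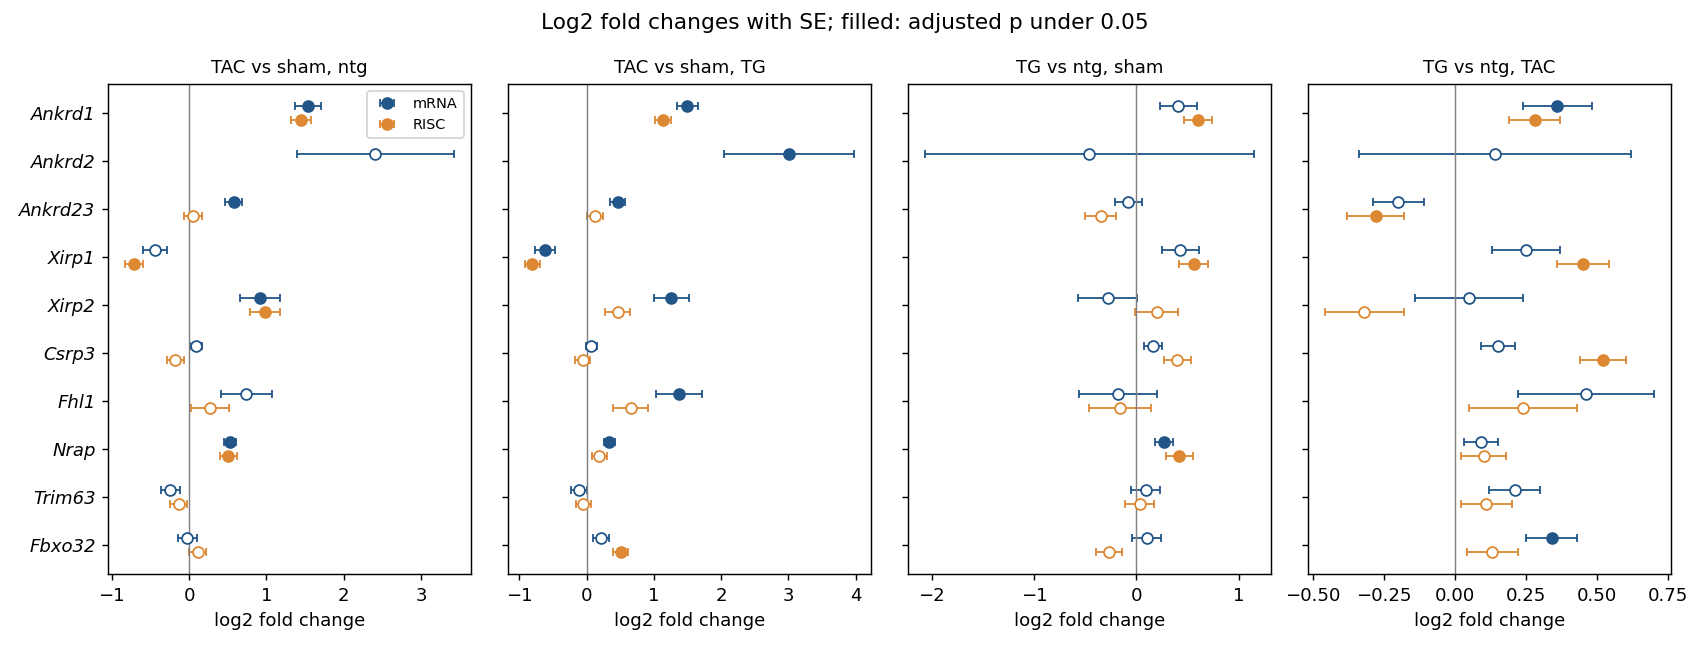
Log2 fold change of each member (horizontal axes) with its SE (whiskers) in mRNA and RISC libraries, for TAC against sham in ntg and TG hearts and for TG against ntg in sham and TAC hearts; filled points have an adjusted p under 0.05. For TAC against sham, Ankrd1 was called higher in both genotypes and both kinds of library, at 1.13 to 1.54, while Trim63 had no filled point.

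No member's response to TAC was found to differ between the genotypes in mRNA. The interaction called 0 members with edgeR and 0 with DESeq2, and 0 had an unadjusted p under 0.05, where 10.2% of all genes did; 0.0849% of all genes were called. The widest intervals were those of Ankrd2 (-2.73 to 3.92), Fhl1 (-0.24 to 1.52) and Xirp2 (-0.35 to 1.02), and differences in response of that size lie within them. For Ankrd1 the interval was -0.47 to 0.37 and for Nrap -0.40 to 0.03. A call in TG hearts and none in ntg hearts, as for Xirp1 and Fhl1, is thus not a tested difference between genotypes.

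In RISC, as in mRNA, Ankrd1 was higher and Xirp1 lower after TAC in both genotypes. After TAC 4 of the 9 members tested were called in ntg hearts, 3 higher and 1 lower, against 10.9% of 13451 genes. In TG hearts 3 were called, 2 higher and 1 lower, against 8.56%. Without ntg sham heart 1 or 2, 730 or 954 genes were called in ntg hearts in place of 1470, and without TG sham heart 1, 2 or 3, 669, 510 or 610 were called in TG hearts in place of 1151. Ankrd1 rose from 705, 791 and 848 CPM in ntg sham hearts to 1849 to 2544 CPM (median 2103) after TAC, by 1.45 on the log2 scale (SE 0.13, adjusted p = 3.68e-10). In TG libraries it rose from 993, 1090 and 1469 CPM to 2198 to 3062 CPM (median 2447), by 1.13 on the log2 scale (SE 0.12, adjusted p = 1.36e-07). All TAC libraries were above all sham libraries of the same genotype.

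Xirp1 fell in RISC in both genotypes. It was at 250, 321 and 242 CPM in ntg sham and 140 to 186 CPM (median 165) in ntg TAC hearts. With the transgene it was at 334, 400 and 461 CPM in sham and 170 to 263 CPM (median 237) in TAC, with no overlap in either genotype. The log2 fold changes were -0.71 (SE 0.12, adjusted p = 7.43e-05) and -0.81 (SE 0.11, adjusted p = 1.67e-05), and both calls held without any library. Xirp2 rose in ntg hearts, from 271, 444 and 348 CPM to 577 to 880 CPM (by 0.98 on the log2 scale, SE 0.19, adjusted p = 0.00195). Nrap rose in ntg hearts as well, from 622, 690 and 717 CPM to 812 to 1086 CPM (0.51, SE 0.11, adjusted p = 0.00217). In TG hearts Xirp2 (0.46, adjusted p = 0.13) and Nrap (0.19, adjusted p = 0.297) were not called. Ankrd23, which rose in mRNA, had RISC intervals of -0.19 to 0.29 in ntg and -0.12 to 0.36 in TG hearts. Fhl1 was not called in RISC in ntg (0.27, adjusted p = 0.566) or TG hearts (0.66, adjusted p = 0.126).

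The RISC libraries differed in how counts depended on transcript length, and some of these calls changed with it as a covariate. The slope of log2 CPM on log2 transcript length, taken from each gene's mean, was 0.0783 ± 0.0379 (SD, n = 7) in ntg TAC libraries and -0.0502 ± 0.0517 in TG TAC libraries. It was -0.0197 ± 0.0169 (SD, n = 3) in ntg sham and -0.0461 ± 0.0374 in TG sham libraries. With this slope as a covariate the ntg calls of Xirp2 (0.56, adjusted p = 0.135) and Nrap (0.38, adjusted p = 0.197) were lost. The slope came from these same libraries and differed between ntg sham and ntg TAC hearts, so the fit cannot tell it from the operation. In TG hearts the rise of Xirp2 was called with the slope (0.49, adjusted p = 0.0244). It was also called there by DESeq2 (0.45, adjusted p = 0.0465) and in 1 of the 20 fits that left out a library. The call of Fbxo32 in TG hearts, at 86.3, 96.7 and 122 CPM in sham and 114 to 157 CPM in TAC (0.51, SE 0.11, adjusted p = 0.00369), was lost without TG sham heart 1 (0.40, adjusted p = 0.0609).

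**Figure D3:**
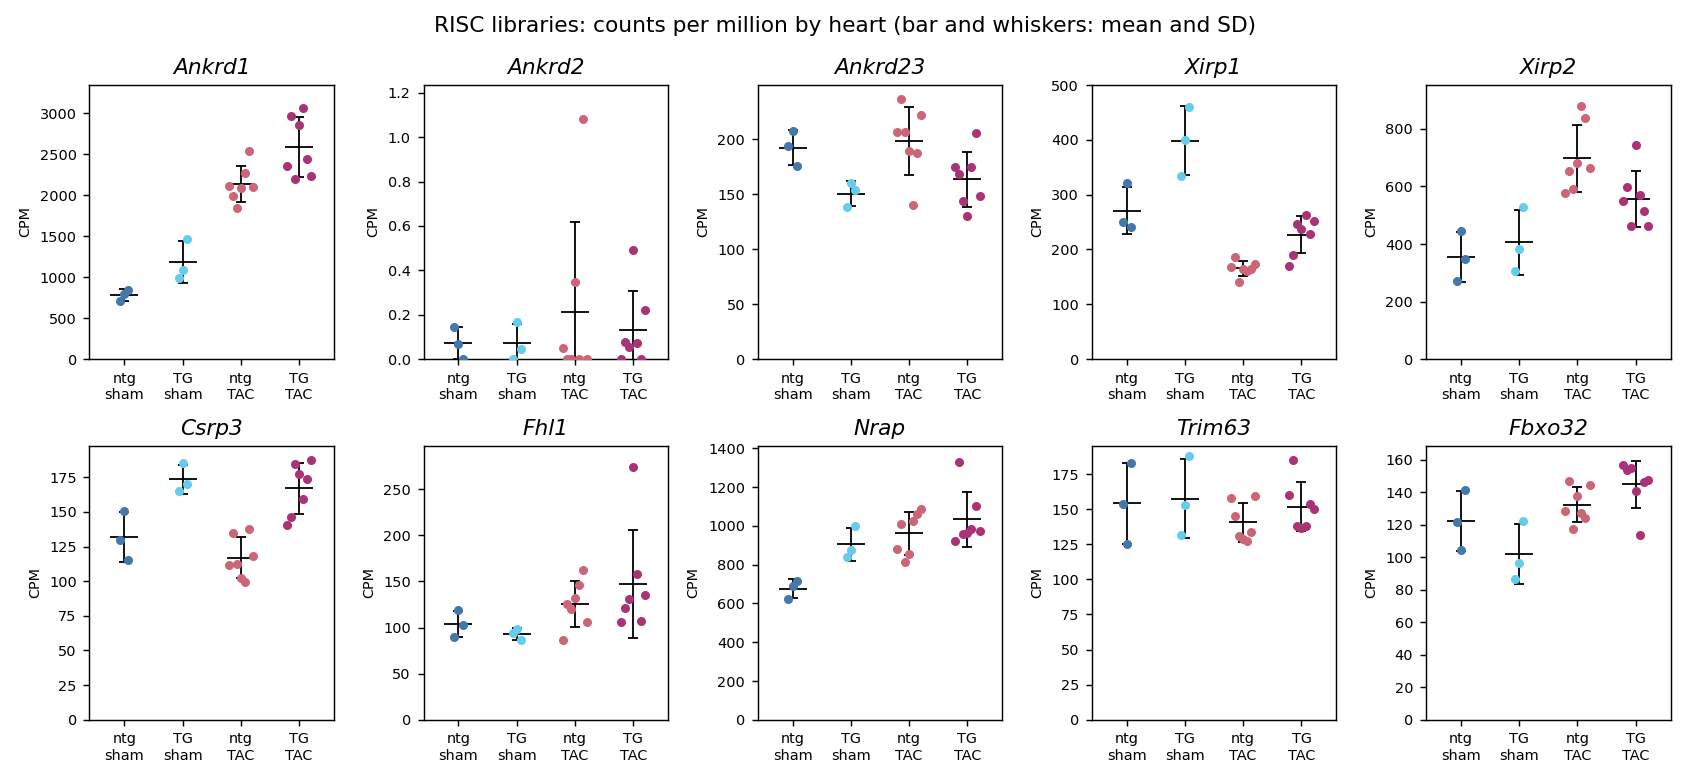
Level of each member in the RISC libraries in CPM (vertical axes, each starting at 0) for each heart (points) in the 4 groups, with the mean and SD of the group (bar and whiskers; 3 sham and 7 TAC hearts per genotype). After TAC, Csrp3 lay between 99.3 and 138 CPM without the transgene and between 141 and 187 CPM with it, and Ankrd2 stayed at or below 1.08 CPM.

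With the transgene, Ankrd1 and Xirp1 were higher in RISC under both operations. In sham hearts 3 of the 9 members were called, all higher, against 5.81% of all genes, and in TAC hearts 3 were called higher and 1 lower, against 15.2%. In sham hearts the log2 fold changes were 0.60 for Ankrd1 (SE 0.14, adjusted p = 0.00596), 0.56 for Xirp1 (SE 0.14, adjusted p = 0.0119) and 0.42 for Nrap (SE 0.13, adjusted p = 0.0425). Of the 9 members, 5 did not overlap between the sham groups, these 3 and Csrp3 being higher and Ankrd23 lower with the transgene, where 25.4% of all genes did not overlap in either direction. The background of 782 called genes became 517 and 441 without ntg sham heart 2 and 3, and 495, 492 and 488 without TG sham heart 1, 2 and 3. The sham calls rested on few hearts: without TG sham heart 3 none of the 3 was called (Ankrd1 0.42, adjusted p = 0.1; Xirp1 0.44, adjusted p = 0.0993; Nrap 0.35, adjusted p = 0.192). Xirp1 was also lost without ntg sham heart 1 (0.51, adjusted p = 0.0662) or 3 (0.48, adjusted p = 0.0852), and Nrap without any other sham heart (0.37 to 0.47, adjusted p 0.0525 to 0.158). Nrap was also lost with atrial marker level as a covariate (0.37, adjusted p = 0.0671).

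In TAC hearts Csrp3 separated the genotypes in RISC. The ntg TAC hearts had 112, 135, 113, 103, 99.3, 138 and 118.5 CPM, and the TG TAC hearts had 141, 147, 184, 177, 159, 173.5 and 187 CPM. Every TG heart was above every ntg heart. The log2 fold change was 0.52 (SE 0.08, adjusted p = 5.06e-05), against 0.15 (SE 0.06, adjusted p = 0.0827) in mRNA. In sham hearts the RISC level of Csrp3 was 130, 151 and 115 CPM without the transgene and 165, 185 and 170 CPM with it, without overlap, and missed the threshold (0.40, SE 0.13, adjusted p = 0.0614). The sham difference was called by DESeq2 (0.40, adjusted p = 0.04) and when only the sham groups were fitted (0.40, adjusted p = 0.0494).

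Xirp1 in RISC was at 140 to 186 CPM in the TAC hearts without the transgene and at 170 to 263 CPM in those with it (log2 fold change 0.45, SE 0.09, adjusted p = 0.000736). Ankrd1 differed by 0.28 (SE 0.09, adjusted p = 0.033), and its call was lost without ntg TAC heart 2, 3 or 4 or TG TAC heart 2, 4 or 5 (0.23 to 0.27, adjusted p up to 0.0832). Ankrd23 was lower with the transgene, at 130 to 205 CPM beside 140 to 237 CPM in ntg TAC hearts (-0.28, SE 0.10, adjusted p = 0.043), a call lost in 13 of 20 fits that left out a library (adjusted p up to 0.108). With the length slope as a covariate the calls of Csrp3 (0.39, adjusted p = 0.213), Xirp1 (0.56, adjusted p = 0.0629) and Ankrd23 (-0.49, adjusted p = 0.133) were lost as well. The slope came from these same libraries and differed between the TAC groups, so this fit cannot tell it from the genotype. The SEs rose to 0.14, 0.16 and 0.16 in it, while the differences of Xirp1 and Ankrd23 grew. In the RISC libraries the interaction called 0 members with edgeR and 0 with DESeq2. Of the 9 members, 2 passed 0.05 without adjustment, Fbxo32 and Nrap, where 10.2% of all genes did, and 0.342% of all genes were called after adjustment.

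RISC was set against mRNA by scaling both libraries of a heart together and taking the difference of log2 CPM, RISC minus mRNA. The libraries were made from differently selected RNA, and none of the 40 was of a control precipitate. The difference is therefore not a measured share of a gene's RNA bound to Ago2. Csrp3 stood lowest of the members in every group, with -1.99 ± 0.07 in ntg sham (SD, n = 3), -1.75 ± 0.10 in TG sham, -2.25 ± 0.12 in ntg TAC (SD, n = 7) and -1.88 ± 0.15 in the TG hearts after TAC. Between 4.2 and 7.5% of the genes tested lay lower. Fbxo32 was at 0.47 ± 0.09 in ntg sham and 0.60 ± 0.13 in ntg TAC hearts, the highest of the members in both. In TG hearts it was at 0.11 ± 0.11 in sham and 0.39 ± 0.05 in TAC. Ankrd23 went from -0.42 ± 0.09 in ntg sham to -0.96 ± 0.20 in ntg TAC hearts. The median of all genes was -0.14 to -0.07 in the 4 groups. Csrp3 had the shortest exon sequence of the members, 973 bases, and Fbxo32 had 6936. Xirp2, with 11971 bases, was at 0.09 ± 0.37 in ntg sham hearts. The part of transcript length in this order was not tested. Atrial markers differed between the libraries of a heart, with Bmp10 in TG TAC heart 4 at 160.5 CPM in mRNA and 0.327 CPM in RISC. Whether both libraries of a heart came from the same piece of tissue is not given in the sources used here, and its part in RISC minus mRNA was not tested.

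**Figure D4:**
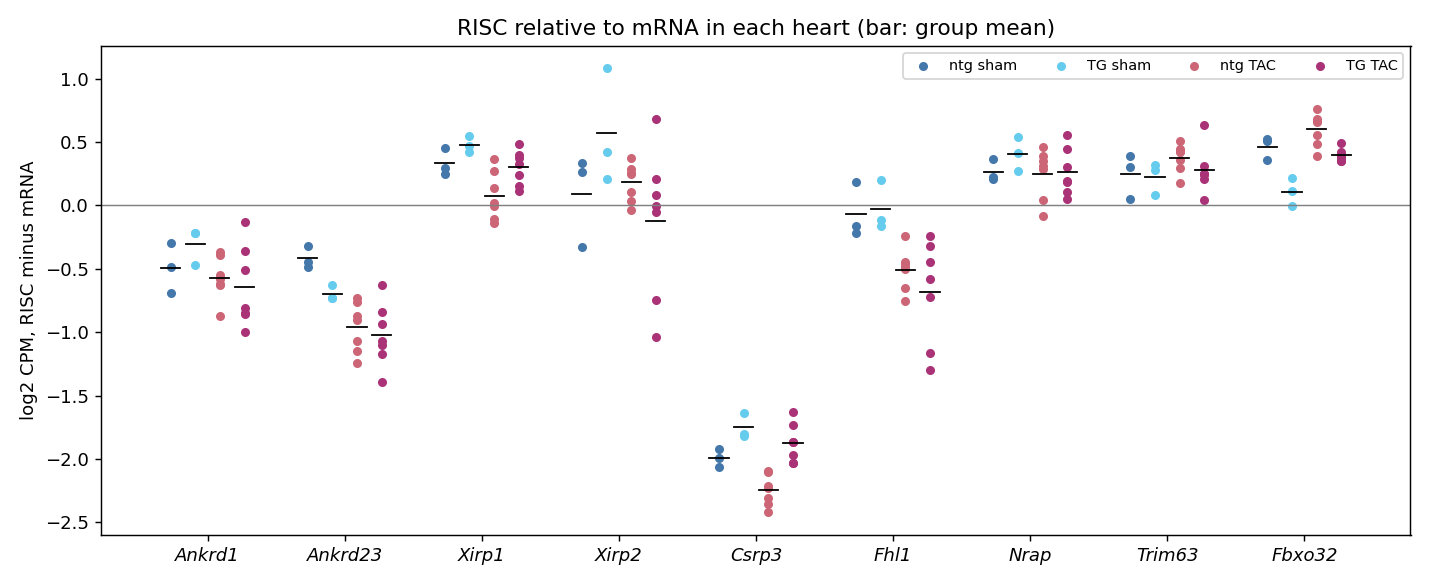
Log2 CPM in the RISC library minus log2 CPM in the mRNA library of the same heart (vertical axis) for the 9 members tested in RISC (horizontal axis), by group; bars are group means. Csrp3 lay near -2 in all 4 groups, from -2.25 in ntg TAC to -1.75 in TG sham hearts.

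A model of all 40 libraries tested 14372 genes and did not pair the libraries of a heart. It called no member for RISC relative to mRNA in any of 4 comparisons with edgeR. For TG against ntg 0.244% of all genes were called in sham and 0.946% in TAC hearts, and for TAC against sham 0.0209% were called in ntg and 0.0278% in TG hearts. Without adjustment, 1 member passed 0.05 in 3 of the comparisons: Csrp3 in TG against ntg TAC hearts, Ankrd23 in TAC against sham ntg hearts and Xirp2 in TAC against sham TG hearts. In TG against ntg sham hearts 0 members did. Of all genes, 12.6, 9.62, 9.4 and 10.2% passed without adjustment in these 4 comparisons, so 1 of 10 members is near the background. The Csrp3 difference was 0.37 (SE 0.11, adjusted p = 0.0735). It was called when the heart, which the libraries of a pair share, was a block (0.37, SE 0.08, adjusted p = 0.0132), by DESeq2 (0.36, adjusted p = 0.0326) and with Rn45s left out (0.39, adjusted p = 0.0486). DESeq2 called no other member in these comparisons. Of the 20 fits that left out a heart, all without pairing, 0 called Csrp3 (adjusted p 0.0665 to 0.177). The fit with the heart as a block was not repeated with hearts left out. The length slope was not a covariate in this model, so its part in the Csrp3 difference was not tested.

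Hearts of a group that had more of a transcript in mRNA also had more in RISC for some members. The deviations of log2 CPM from the group mean were correlated over the 20 hearts, with permutations within groups and adjustment over the 9 members. Other genes were not put through this test. The share of all genes that would pass is thus not known, and passing is not shown to be particular to the members. Pearson's r was 0.87 for Fbxo32 (adjusted permutation p = 0.00135; Spearman's rho 0.82, adjusted p = 0.00036) and 0.78 for Fhl1 (adjusted permutation p = 0.00027; rho 0.78, adjusted p = 0.000405). It was 0.77 for Xirp1 (adjusted permutation p = 0.00186; rho 0.72), 0.70 for Csrp3 (adjusted permutation p = 0.00274; rho 0.68) and 0.69 for Trim63 (adjusted permutation p = 0.00646; rho 0.75). Without the 2 hearts farthest from the median in mRNA, r was 0.82 for Fbxo32, 0.66 for Fhl1, 0.65 for Xirp1, 0.68 for Csrp3 and 0.57 for Trim63. Ankrd1 (r = 0.45, adjusted permutation p = 0.13), Ankrd23 (r = 0.46, adjusted permutation p = 0.104), Xirp2 (r = 0.15, adjusted permutation p = 0.524) and Nrap (r = 0.18, adjusted permutation p = 0.524) did not pass, although Ankrd1 had the largest change between groups in both kinds of library.

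**Figure D5:**
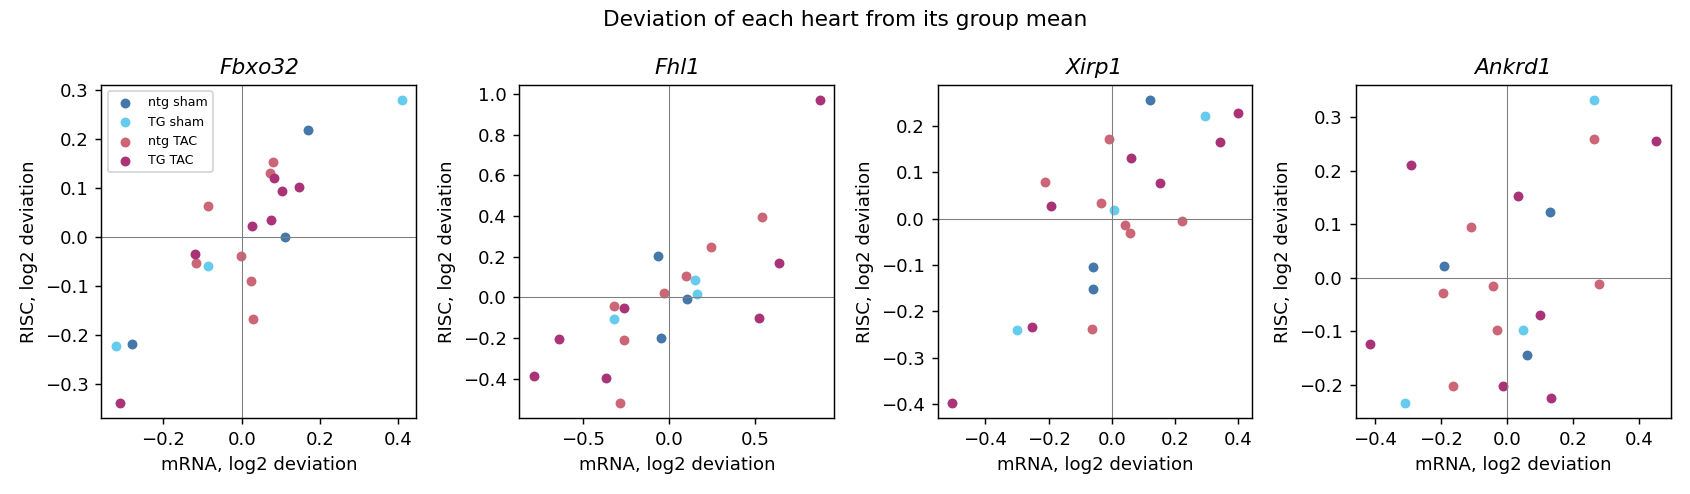
Deviation of each heart (points, coloured by group) from its group mean of log2 CPM in the mRNA library (horizontal axes) and in the RISC library (vertical axes) for Fbxo32, Fhl1, Xirp1 and Ankrd1. The 20 hearts lie along a rising line for Fbxo32 (r = 0.87) and scatter for Ankrd1 (r = 0.45).

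Within groups the members did not move as a single block in mRNA. Over 36 pairs of the 9 members other than Ankrd2, the correlation of deviations over 20 hearts had a median of 0.19 and ran from -0.58 for Fhl1 with Trim63 to 0.75 for Ankrd23 with Xirp2. The ligases Trim63 and Fbxo32 were at 0.74. The libraries share depth and tissue sampling, and no p is given for these values. Of 10152 genes with at least 5 CPM, those most like a member by this measure were Sept2 (0.903) and Rorb (0.85) for Ankrd1, and Eif4enif1 and Samd4 (0.808 each) for Ankrd23. For Fhl1 they were the sarcomeric actins Actc1 (0.899) and Acta1 (0.896), for Fbxo32 Rnf144b (0.905) and Rasgef1b (0.847), and for Trim63 Anp32a (0.862) and Fam134b (0.861). For Xirp1 they were Nuak1 (0.839) and Itga5 (0.836), for Xirp2 Fam198b (0.873), for Csrp3 Taf13 (0.821) and Znrf3 (0.786), and for Nrap Chd8 (0.867) and Zdhhc5 (0.848).

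Proteins that share the Z-disc and titin with the members did not rise as a group after TAC. Of 22 such genes, 2 were called higher and 5 lower in ntg hearts and 3 higher and 3 lower in TG hearts in mRNA, where 17.7 and 13.1% of all genes were called, with medians of -0.12 and 0.01 on the log2 scale. Synpo2l, an actin-binding protein of the Z-disc, rose in both genotypes (0.85, adjusted p = 0.00168 in ntg; 0.57, adjusted p = 0.0285 in TG), and Mypn, which binds Ankrd1, fell in ntg hearts from 300.3 to 184 CPM (-0.71, SE 0.07, adjusted p = 9.04e-07). Des, the intermediate filament protein desmin, rose in TG hearts (0.59, adjusted p = 0.00111). With the transgene 2 of the 22 were called higher and 6 lower in sham hearts, where 18.6% of all genes were called, among them Fhl2, a LIM-only relative of Fhl1, which was at 569 ± 56.8 CPM beside 1037 ± 136 CPM in ntg hearts (SD, n = 3; log2 fold change -0.87, adjusted p = 1.86e-05), and Pdlim3 (-0.86, adjusted p = 6.81e-05). In TAC hearts 3 were called higher and 4 lower with the transgene, against 25.3% of all genes, with Capn3 (0.54, adjusted p = 0.000396) and Myot (0.48, adjusted p = 0.0247) changing most.

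Of 22 genes of muscle atrophy and protein breakdown, 1 was called higher and 5 lower after TAC in ntg hearts and 0 higher and 1 lower in TG hearts, beside the same 17.7 and 13.1% of all genes. In ntg hearts Gadd45a rose (0.86, adjusted p = 0.000755) and Klf15, a glucocorticoid-responsive transcription factor, fell (-0.78, adjusted p = 0.000516); the call in TG hearts was Trim32 (-0.30, adjusted p = 0.0495). With the transgene 8 were called higher and 2 lower in TAC hearts (25.3% of all genes), and 2 higher and 2 lower in sham hearts (18.6% of all genes). Mstn (myostatin) was at 1.35 ± 0.568 CPM in TG hearts after TAC, beside 0.314 ± 0.226 CPM in ntg hearts (SD, n = 7; log2 fold change 2.07, adjusted p = 0.000156). Skp1a, a partner of Fbxo32 in its ligase complex, was higher in TG TAC hearts (0.53, SE 0.13, adjusted p = 0.00689). Foxo1, a transcription factor that can switch on both ligases, was lower in TG sham hearts (-0.70, SE 0.13, adjusted p = 0.000399), and Gadd45a was higher there (0.76, adjusted p = 0.00594).

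The same background shares apply to the lists that follow. Among 18 regulators and readouts of stretch signalling, 2 were called higher and 2 lower after TAC in ntg hearts, led by Mef2c (0.30, adjusted p = 0.00717) and Srf (-0.30, adjusted p = 0.00236). In TG hearts 1 was called higher and 3 lower, led by Myocd (-0.44, adjusted p = 0.00575) and Mef2a (-0.29, adjusted p = 0.00346). With the transgene 6 were called higher and 1 lower in sham hearts, with Nkx2-5 (0.97, SE 0.32, adjusted p = 0.0427) and Lats2 (0.40, SE 0.12, adjusted p = 0.0239) changing most, and 3 higher and 3 lower in TAC hearts, with Cyr61 (-0.58, adjusted p = 0.017) and Myocd (-0.44, adjusted p = 0.000181). Of 8 markers of overload, 3 were called higher and 2 lower after TAC in ntg and 3 higher and 1 lower in TG hearts. Acta1, skeletal alpha-actin, rose from 700 ± 146 to 3739 ± 719 CPM in ntg hearts (2.42, adjusted p = 0.000463) and from 237 ± 79.8 to 2462 ± 1273 CPM in TG hearts (3.37, adjusted p = 0.000113). Postn (periostin) rose by 1.77 (adjusted p = 0.00448) and 2.16 (adjusted p = 0.00267) on the log2 scale. With the transgene 0 markers were called higher and 2 lower in sham hearts, Acta1 (-1.56, adjusted p = 0.0138) and Atp2a2 (-0.41, adjusted p = 0.00873). In TAC hearts 2 were called higher and 1 lower, led by Nppb (0.70, adjusted p = 0.00808) and Rcan1 (0.53, adjusted p = 0.0354).

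In RISC, where 10.9 and 8.56% of all genes were called after TAC in ntg and TG hearts, and 5.81 and 15.2% with the transgene in sham and TAC hearts, the same lists gave 1 higher and 5 lower of 22 Z-disc and titin genes after TAC in ntg hearts and 2 higher and 3 lower in TG hearts, with Mypn lower in both (-0.72, adjusted p = 5.31e-06; -0.60, adjusted p = 0.000127). With the transgene 1 was higher and 2 lower in sham hearts and 5 higher and 4 lower in TAC hearts, with Myot higher in both (0.91, adjusted p = 0.00193; 0.50, adjusted p = 0.00411). Of the 22 atrophy genes, 1 was higher and 1 lower in sham and 4 higher and 1 lower in TAC hearts with the transgene. The muscle F-box protein Fbxo40 was higher in TG sham hearts (0.70, SE 0.14, adjusted p = 0.00123), and Mstn (1.87, adjusted p = 0.00974) and Skp1a (0.31, adjusted p = 0.0343) were higher in TG TAC hearts. Of the 18 regulators, Ctgf (0.78, adjusted p = 0.00798) and Nkx2-5 (0.50, adjusted p = 0.00822) led 4 called higher and 3 lower in TAC hearts with the transgene. No gene of the 4 lists was called for RISC relative to mRNA.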

How the data were processed

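The deposited files give counts of reads per gene for each library, with no normalization. The submitters' processing notes name the build mm10, the aligners TopHat, TopHat2 2.0.10 and Bowtie2, HTSeq, and the tools edgeR and DESeq, without their order. Per the labels' protocols, single-end libraries were made by a method that keeps no strand, so overlapping genes cannot be told apart. Rows for reads of no gene, 10.1 to 15.8% of the reads in mRNA and 2.57 to 6.20% in RISC libraries, were left out.

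The 20 mRNA and the 20 RISC libraries were fitted apart, each with the 4 groups in 1 model, and together for RISC relative to mRNA (edgeR 4.0.16 in R 4.3.3, TMM scaling, filterByExpr, glmQLFit with robust estimation, glmQLFTest). Benjamini-Hochberg adjustment covered all genes tested, and an adjusted p under 0.05 was called. SEs are the log2 fold change divided by the root of F, intervals are 1.96 SE to each side, and CPM values are TMM-scaled. Correlations used log2 CPM with a prior count of 2 and 100000 permutations within groups. Other scalings, DESeq2 1.42.0, no filter, omitted libraries, omitted Rn45s, blocks and covariates were alternatives.

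The members and lists were chosen with earlier results of these data known. All 10 members are described. List genes were named by the 2 called genes with the largest change in a comparison, and like genes by the 2 highest correlations, of which 1 for Xirp2 is not reported here. The mRNA and RISC libraries of a heart carry the same animal code, so they are paired: the median correlation of their deviations over genes was 0.174, above 0.1 in 15 of 20 hearts. Same replicate numbers across genotypes mark different animals. Control hearts are sham-operated per the labels, but the headers of the deposited joint tables mark them as not operated.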

Additional observations from a re-analysis of the deposited data

Results flagged for a closer look

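In 3 of 40 groups of values checked (10 members in the 4 TAC groups of libraries), a library stood apart from the others of its group; chance flags about 1 in 20 groups. Fhl1 in the RISC library of TG TAC heart 4 was at 274.6 CPM, and the next highest was at 157.8 CPM. The same heart had the highest Fhl1 level in mRNA, 880.3 CPM. Fbxo32 in the RISC library of TG TAC heart 5 was at 113.9 CPM, below the next lowest at 140.7 CPM, and that heart also had the lowest Fbxo32 mRNA of its group, 187.8 CPM. Ankrd2 in the RISC library of ntg TAC heart 6 was at 1.083 CPM, the next highest was at 0.3493 CPM, and the gene had at most 9 counts in that group. The causes were not tested.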

How the results depend on the processing

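Of 135 member values in 14 comparisons, 28 were called, none of these changed sign under any alternative run, and 11 kept their call under every one. Of 94 values called in no fit, 34 changed sign in some alternative. With RLE scaling no member's call changed. The difference of Xirp2 in RISC between TG and ntg TAC hearts, -0.32, turned to 0.19 with the length slope as a covariate. The slope also took members called in RISC from 4 to 1 for TG against ntg TAC hearts and from 4 to 2 for TAC against sham ntg hearts. It differed between the groups in both comparisons, so these fits cannot tell it from the genotype or the operation. In mRNA, adipocyte or atrial covariates (the atrial covariate was added after the data were seen) took the single call between TG and ntg sham hearts to 0, and fitting only the groups compared took the TAC calls in TG hearts from 7 to 4. The cause was not tested. The adipocyte level differed between TG and ntg sham hearts, so the fit with it cannot tell it from the genotype. For RISC relative to mRNA in TG against ntg TAC hearts, DESeq2, leaving out Rn45s and the block on hearts each gave 1 in place of 0.

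With libraries left out in turn, members called in mRNA ran from 0 to 1 (TG against ntg, sham), 1 to 3 (TG against ntg, TAC), 3 to 5 (TAC against sham, ntg) and 5 to 7 (TAC against sham, TG). In RISC they ran from 0 to 3, 2 to 4, 4 to 4 and 2 to 4. For RISC relative to mRNA no member was called in any of these fits. Where an arm had few hearts, the shared spread of the other groups entered.

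Replicate numbers do not pair hearts across groups. With them as a replicate block, 1 member in place of 2 was called in mRNA of TG against ntg TAC hearts, since Ankrd1 missed (0.34, adjusted p = 0.0514), and the TAC calls of Fhl1 (1.10, adjusted p = 0.0891) and Ankrd2 (2.31, adjusted p = 0.109) in TG hearts were lost while Xirp1 was called in ntg hearts (-0.57, adjusted p = 0.0149). Correlations over same-numbered hearts across genotypes had medians of -0.016 and -0.027 in mRNA and 0.086 and 0.104 in RISC.

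With libraries left out in turn, counts over all genes ran from 1772 to 2818, 3174 to 3728, 1473 to 2689 and 1020 to 1953 in mRNA (TG against ntg in sham and TAC, then TAC against sham in ntg and TG hearts), in that order from 441 to 926, 1579 to 2053, 730 to 1487 and 510 to 1381 in RISC, from 1 to 22 and 5 to 66 for the interactions, and from 8 to 43, 91 to 181, 1 to 5 and 0 to 17 for RISC relative to mRNA. Under the other alternatives they moved by more than 1.5 times in these cases. With adipocyte markers, 2627 became 966 (mRNA, TG against ntg, sham), 2505 became 984 (TAC against sham, ntg) and 12 became 0 (interaction, also 73 with DESeq2 and 3 with atrial markers). For mRNA TAC against sham in TG hearts, 1857 became 1062 with the replicate block and 1009 with the groups compared alone. In RISC, 2050 became 175 with the length slope (TG against ntg, TAC); 1470 became 840 with the block, 195 with the slope and 946 with atrial markers (TAC against sham, ntg); 1151 became 685 with the block (TG); and 46 became 126 with DESeq2 and 9 with the slope (interaction). For RISC relative to mRNA, DESeq2 and the block gave 121 and 68 in place of 35, 332 and 236 in place of 136, 19 and 0 in place of 3, and 88 and 34 in place of 4, where RLE gave 2 and no filter or no Rn45s gave 1.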

Other observations

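Atrial markers varied widely between hearts and not alike in the paired libraries. The summed level of Sln, Myl4, Myl7, Bmp10 and Nppa ran from 352 to 8019 CPM over the mRNA libraries and from 180 to 1228 CPM over the RISC libraries. In TG TAC heart 4 Bmp10 was at 160.5 CPM in mRNA and 0.327 CPM in RISC. The mean log2 level of the first 4 of these markers after TAC was 5.11 ± 2.27 without and 6.39 ± 1.89 with the transgene in mRNA (SD, n = 7), and 4.33 ± 0.994 and 4.45 ± 1.34 in RISC.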
